A study of Culex quinquefasciatus with 20 samples.

Results

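The comparison described here set the WI group, unexposed Culex quinquefasciatus females reared from field eggs, against the CO group, unexposed females of the Sebring colony. It used 10 of the 20 RNA-seq libraries of the series, 5 from each group, chosen by the group named in the sample labels. The WI females came from eggs collected in the Houston area of Harris County, Texas, and the CO females from a malathion-susceptible strain of Florida origin that is kept in the laboratory and was reared under the same conditions. Both groups were taken at an age of 3 days without any insecticide, and each library was made from whole bodies of 10 pooled females, less a leg used for species identification. The other 10 libraries were field females that had gone through a malathion bottle assay, as survivors (the MR group) or as susceptible females (the MS group), and they entered here through the shared estimate of spread, the mean level that sorts genes into abundance classes, and a look at detection. A single field population stands against a single colony, so differences of strain, origin, colony history and pool cannot be told apart, and nothing in the comparison concerns insecticide exposure. The labels call the replicates biological and the methods call them technical, so the p-values measure only a spread between pools. In the fit of all 20 libraries that spread was estimated over the MR and MS pools as well as the WI and CO pools. Fewer cells of a type and less RNA per cell cannot be told apart in whole-body pools.

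Culex quinquefasciatus, the southern house mosquito, lives as an adult female on stored glycogen and lipid, plant sugar and vertebrate blood. Mitochondrial ATP synthase and the respiratory chain make the ATP for flight, serine endopeptidases of the trypsin and chymotrypsin kind digest blood protein, and cytochrome P450s, glutathione S-transferases (GSTs) and esterases modify foreign compounds as well as hormones and fatty acids. Colonies kept for many generations in a laboratory are bred from a limited stock under steady feeding, and such a colony can differ from field mosquitoes in sequence as well as in expression.

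The deposited tables gave a total of 154239309 to 184564593 assigned counts in the WI libraries and 144117152 to 189723320 in the CO libraries. TMM factors, the scaling that edgeR derives from the bulk of genes, ran between 0.807 and 1.34 in the WI libraries and between 0.841 and 1.72 in the CO libraries. CO replicate 2 and CO replicate 4 stood apart from the rest of their group. CO replicate 2 lay nearest to WI replicate 1, at a root mean square log2 difference of 1.51, and its nearest colony library was 1.68 away. The nearest library to CO replicate 4 was 1.54 away, whereas CO replicates 1, 3 and 5 each had a colony neighbour at 0.902 or 0.920. Of the 23 genes with at least 10 counts in every WI library and 0 counts in the other 4 colony libraries, CO replicate 2 had 0 counts at 18. Of the 6 genes with 0 counts in every WI library and at least 10 in the other 4 colony libraries, it had at least 10 counts at 3 and 0 counts at 3. Results that rest on these 2 libraries are given with and without them, an alternative chosen after seeing the data.

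A total of 17499 of the 19793 genes in the files had enough counts to be tested, and edgeR called 1102 of them (6.3%) up-regulated and 726 (4.15%) down-regulated, WI relative to CO, at an FDR under 0.05 in the quasi-likelihood test over all 20 libraries. The median log2 fold change, WI minus CO, was 1.5 among the up-regulated and -1.26 among the down-regulated genes, against a median of -0.02 and a median size of 0.46 over all tested genes. The up-regulated side reached much further. Changes of at least 4-fold were called for 390 up-regulated and 182 down-regulated genes, changes of at least 32-fold for 133 and 23, and changes of at least 256-fold for 37 and 5. In each of the 22 other fits the genes called at 32-fold or more were also more numerous on the up-regulated side, with 53 to 148 up-regulated genes against 3 to 41 down-regulated ones.

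**Figure D1:**
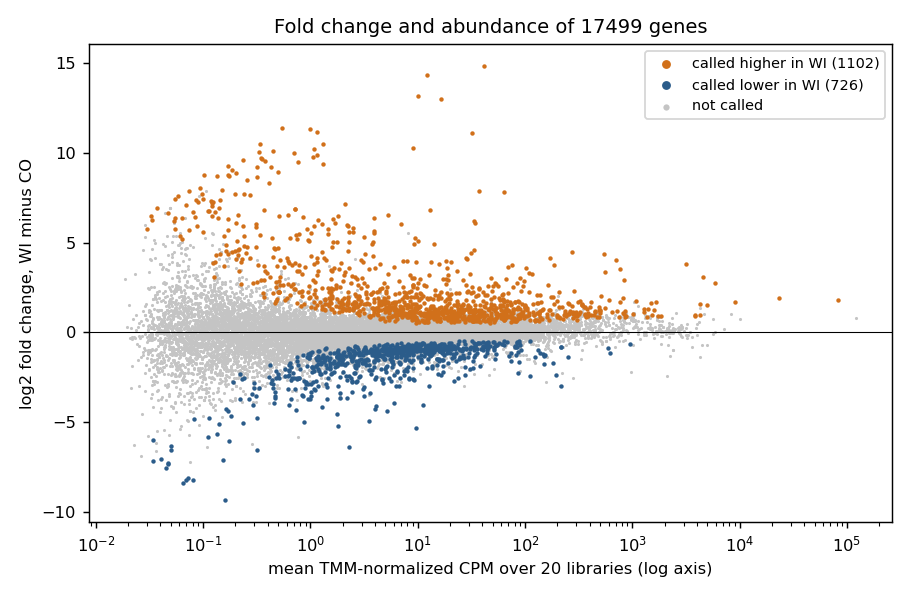
Log2 fold change (WI minus CO, vertical axis) against the mean TMM-normalized CPM over 20 libraries (horizontal log axis) for 17499 genes; each point is 1 gene. The 1102 genes called higher in WI (orange) extend further from 0 than the 726 called lower in WI (blue), and grey points were not called.

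The number of calls depended strongly on how the pools were treated. With the replicate number as a block and only the 10 WI and CO libraries in the fit, 1286 genes (7.71%) were up-regulated and 657 (3.94%) down-regulated of 16686 tested. The same 10 libraries without the block gave 434 (2.6%) and 178 (1.07%), and the block in the fit of all 20 libraries gave 1979 and 1185. No gene called in any of these 3 fits had been called in the other direction by the unblocked fit of 20 libraries. Leaving out CO replicate 4 brought the up-regulated genes to 1671, and leaving out CO replicate 2 brought the down-regulated genes to 1441. Without both of them 2414 genes were up-regulated and 1881 down-regulated. Down-regulated genes numbered 418, 426, 474 and 453 without WI replicate 2, WI replicate 4, WI replicate 5 and CO replicate 1, and 178 was reached with the 10 libraries alone.

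A rule without a model, applied to levels scaled by the same TMM factors, gave the same direction of imbalance. It was not repeated under library size alone, where the fit called 696 genes up-regulated and 942 down-regulated. All 5 WI libraries lay above all 5 CO libraries at 748 genes (4.27% of those tested) and below all of them at 417 (2.38%). Of the 1102 up-regulated genes, 628 had groups that did not overlap, as did 281 of the 726 down-regulated ones. Read as numbered pairs, WI was above CO in 5 of 5 pairs at 2761 genes (15.8%) and below in 5 of 5 at 1782 (10.2%). Most called genes held their direction in every pair, namely 1029 of the up-regulated and 564 of the down-regulated genes.

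Over all 10 libraries the spread between pools was about as large as the distance between the strains. Without CO replicates 2 and 4 the strains lay further apart than the colony pools did. CO replicates 1, 3 and 5 were 0.902 to 1.15 from each other in root mean square log2 difference, and 1.32 to 1.95 from the WI libraries. The root mean square log2 difference between a WI and a CO library was 1.61 at the median (1.32 to 2.14 over 25 pairs), against 1.24 between 2 WI libraries (0.989 to 1.53 over 10 pairs) and 1.68 between 2 CO libraries (0.902 to 2.19 over 10 pairs). The common biological coefficient of variation, edgeR's measure of relative spread between libraries of 1 group, was 0.534 in the WI group and 0.677 in the CO group. It was 0.608 in the CO group without replicate 2 and 0.602 without replicate 4. The MR and MS groups, which entered the shared estimate of the fit of 20 libraries, had lower values of 0.455 and 0.429. The first 3 principal components of the 10 libraries held 31.6%, 20.7% and 17.4% of the variance. Neither of the first 2 separated the strains alone: CO replicate 2 sat among the WI libraries on component 1 and CO replicate 4 on component 2.

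Both the strain and the replicate number went with a share of the variation. Split over all tested genes, 24.5% of the sum of squares of log2 CPM went with the strain, which has 1 of the 9 degrees of freedom, 49.3% with the replicate number, which has 4, and 26.2% with the remainder, which also has 4. Same-numbered WI and CO libraries deviated from their group means together, with correlations across genes of 0.31, 0.47, 0.23, 0.22 and 0.17 for numbers 1 to 5. Differently numbered libraries gave correlations between -0.35 and 0.26, with a median of -0.08. The genes are not independent, so these correlations are given without a p-value. The labels do not say what a shared number stands for.

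**Figure D2:**
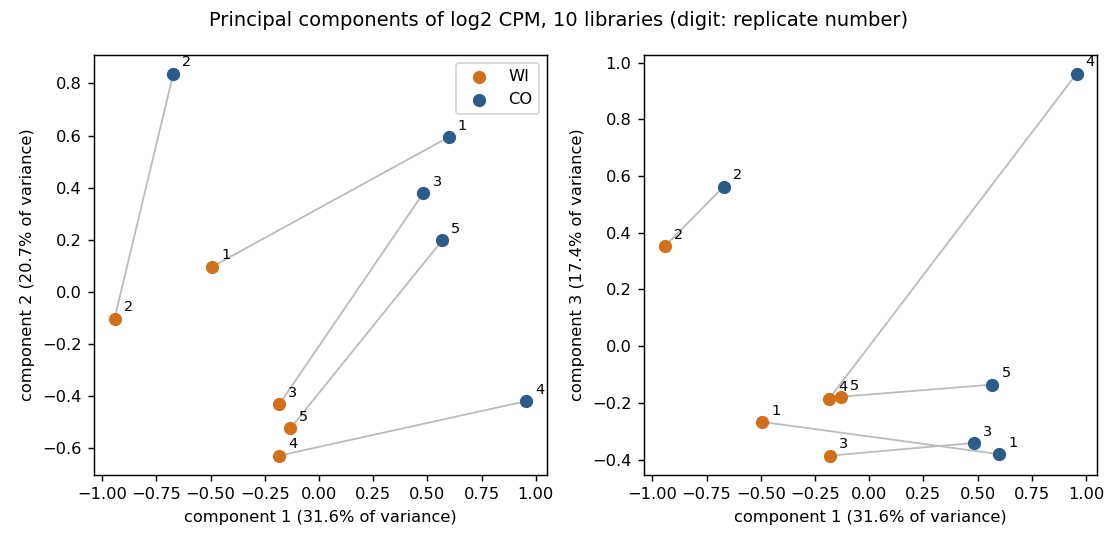
Positions of the 10 libraries on principal components 1 and 2 (left) and 1 and 3 (right) of log2 CPM; orange points are WI, blue points are CO, digits are replicate numbers and grey lines join equal numbers. Components 1 to 3 held 31.6%, 20.7% and 17.4% of the variance, and CO replicate 2 lies on the WI side of component 1.

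Genes with high counts were called mainly in one direction. Sorted by their mean TMM-normalized CPM (counts scaled to a common library size) over all 20 libraries, genes of 1 to 10 CPM split evenly, with 353 up-regulated (5.77%) and 379 down-regulated (6.19%) of 6118. Among 5541 genes of 10 to 100 CPM, 428 were up-regulated (7.72%) and 232 down-regulated (4.19%). Among 853 genes of 100 to 1000 CPM the numbers were 124 (14.5%) and 18 (2.11%), and among the 164 genes of 1000 CPM and over they were 23 (14.0%) and 0. In this uppermost class 5 genes were lower at an unadjusted p under 0.05 in the quasi-likelihood test, and DESeq2, the likelihood ratio test and the blocked fit of 10 libraries each called 3 genes lower, against 36, 35 and 45 higher. Sorted by the mean over the 10 WI and CO libraries alone, this class held 137 genes, of which 10 (7.30%) were up-regulated and 1 was down-regulated, whereas the class of 100 to 1000 CPM had 118 (14.0%) and 23 (2.72%) of 845. The median log2 fold change was -0.14 for genes of 1 to 10 CPM, 0.28 for those of 100 to 1000 CPM and 0.25 for those of 1000 CPM and over. At the low end, 25 of 1203 genes under 0.1 CPM were up-regulated and 13 down-regulated, and the median standard error there was 1.55 on the log2 scale against 0.26 for genes of 10 to 100 CPM. The choice of scaling touched this pattern. By library size alone the median of all genes moved to -0.35, the calls were 696 up-regulated and 942 down-regulated (42.5% up, against 60.3% under TMM), and genes of 100 CPM and over were called higher at 12.5% and lower at 4.23%. The 2 most counted genes, CPIJ040092 and CPIJ016836, which no source used here names, took 6.11% to 11.6% and 4.33% to 11.5% of all counts in the WI libraries, and 3.06% to 9.25% and 1.45% to 4.12% in the CO libraries.

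**Figure D3:**
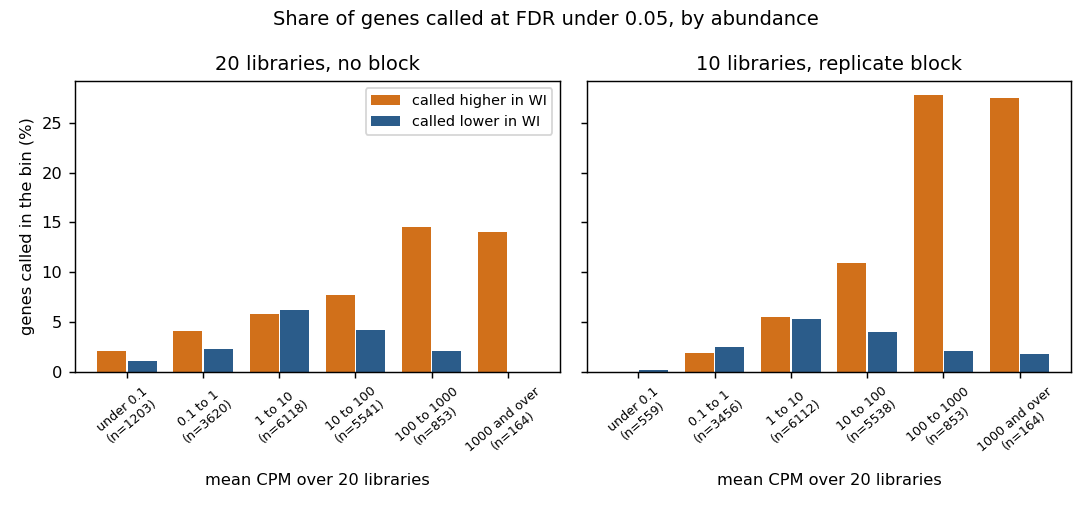
Percent of genes called higher (orange) and lower (blue) in WI at an FDR under 0.05, in 6 classes of mean CPM over 20 libraries, for the unblocked fit of 20 libraries (left) and the blocked fit of 10 libraries (right); n is the number of genes tested in a class. In the unblocked fit 14.5% of the genes of 100 to 1000 CPM were called higher and 2.11% lower.

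Complete differences in detection were few and mostly one-sided. A total of 14526 of the 19038 genes with any count were counted in all 10 libraries. Only 18 genes (0.0945%) had at least 10 counts in each WI library and 0 counts in each CO library, and 3 genes (0.0158%) had the reverse pattern. Accepting up to 3 counts over the whole silent group made these numbers 26 and 4, and asking for at least 100 counts in each library of the other group left 3 and 0. Leaving out CO replicate 3 gave 30 genes in place of the 18, and leaving out WI replicate 1, 3, 4 or 5 or CO replicate 2 or 4 gave 6 or 7 in place of the 3. With 3 counts in the 5 CO libraries together taken as the floor, the 18 genes were at least 72.7-fold to 6723-fold higher in the WI group, with a median bound of 156-fold. The sources used give names for none of them. All 18 and all 3 were also called by the quasi-likelihood test.

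CPIJ039823 had 1742, 978, 4075, 3359 and 3004 counts in WI replicates 1 to 5 and 0 counts in each CO library, a difference of at least 4272-fold. CPIJ012614 was counted 220, 304, 307, 340 and 390 times in WI replicates 1 to 5 and never in the CO group, a difference of at least 507-fold. Both were thus detected in every field pool and in no colony pool at a depth of at least 144117152 counts a library. Of the 18, 3 genes appear in the pathway lists of the study. CPIJ004475, listed as a structural constituent of the cuticle, the layered chitin and protein coat of the insect, had 105, 237, 53, 148 and 33 counts in the WI libraries and 0 in the CO libraries. CPIJ016522, listed under acyltransferase activity, had 134, 86, 583, 344 and 326 counts in the WI libraries and 0 in the CO libraries. CPIJ015849, listed under flavin adenine dinucleotide binding and amino acid metabolism, had 125, 14, 28, 158 and 60 counts in the WI libraries and 0 in the CO libraries. In the reverse direction, CPIJ020141 had 0 counts in each WI library and 38, 127, 50, 140 and 88 in the CO libraries, at least 152-fold lower in the WI group. CPIJ006588 had 0 counts in each WI library and 52, 30, 74, 34 and 42 in the CO libraries, at least 79.4-fold lower. Its call was lost with the block in 10 libraries (adjusted p = 0.055).

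The 10 exposed field libraries, which played no part in choosing these genes, gave another reading of the detection pattern. Of the 18 genes counted in the WI group alone, 12 had counts in all 10 exposed libraries, 11 of them at 10 counts or more in each, and none was at 0 in all 10. The share of all genes counted in every exposed library was not taken, so it is not known whether 12 of 18 is unusual. In the WI and CO libraries, 14526 of the 19038 genes with any count were counted in all 10. The 3 genes counted in the CO group alone were not absent from field mosquitoes either: CPIJ020141 had counts in 6 of the 10 exposed libraries (111 counts in all) and CPIJ006588 in 5 (76 counts in all). Counts of 0 limit the abundance in these pools only. Of genes of at least 1 CPM in the WI group, 18 called ones had a CO mean under 1% of their WI mean, 8 of them with 0 counts in each CO library, and no called gene of at least 1 CPM in the CO group had a WI mean under 1% of its CO mean.

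**Figure D4:**
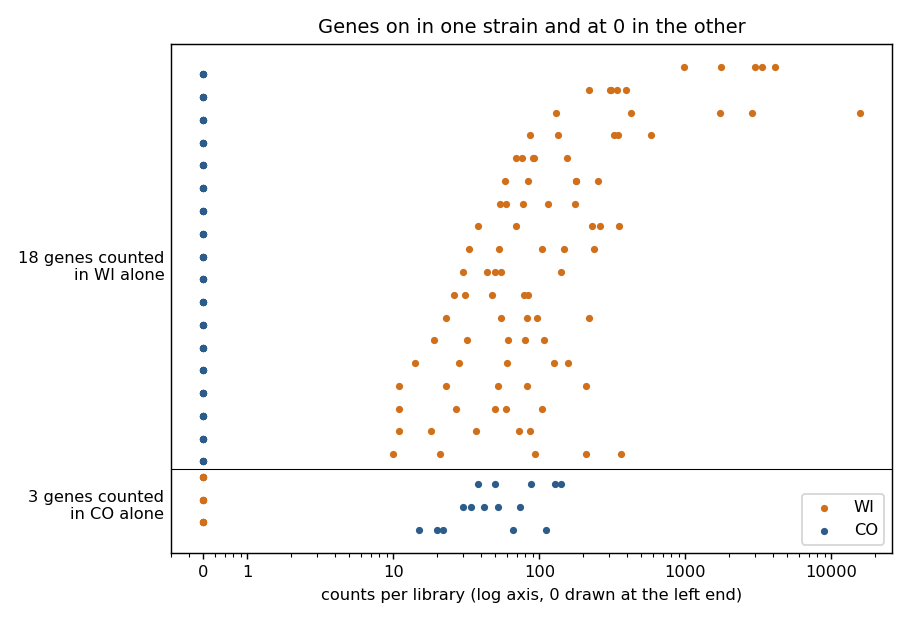
Counts per library (horizontal log axis, with 0 drawn at the left end) of the 18 genes with at least 10 counts in each WI library and 0 in each CO library (above the line) and the 3 with the reverse pattern (below it); orange points are WI and blue points are CO, 5 each per gene. The lowest count on the side where a gene was on was 10.

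The listed genes of ATP production had higher levels in the WI group in nearly every case. These lists come from pathway terms that the study drew from its own calls on this very contrast. The same holds for the pathway lists of the following paragraphs, other than those drawn from the exposed females. Counts of such lists describe the members and are no independent evidence of a direction. Over the union of the pathway lists of that kind, 112 of 214 genes (52.3%) were up-regulated and 48 (22.4%) down-regulated, beside 6.3% and 4.15% of all tested genes, with a median log2 fold change of 1.02 against -0.02 over all tested genes. All 10 genes of the ATP synthase list, the rotary enzyme that makes ATP from the proton gradient, had a positive log2 fold change, with a median of 1.01. Of these 10 the unblocked quasi-likelihood test called 3 up-regulated, and the blocked test of 10 libraries, DESeq2 and the likelihood ratio test each called all 10. The unblocked quasi-likelihood test of 10 libraries called 0, with all 10 at an unadjusted p under 0.05. All 10 were above their same-numbered colony library in 5 of 5 pairs, and none had groups that did not overlap. Among 19 genes listed under the respirasome, the assembled complexes of the respiratory chain, 11 were up-regulated and 1 was down-regulated, and the block made these 18 and 1. The tricarboxylic acid cycle list, which feeds electrons to that chain, had 7 of 9 genes up-regulated, and the glycolysis list had 10 of 11. All 7 genes listed under gluconeogenesis and all 6 listed under glycogen metabolism were up-regulated, with medians of 1.17 and 1.08. These counts of calls were not stable, although every pair of sums kept its direction. With the 10 libraries alone and no block, 2 respirasome, 0 tricarboxylic acid cycle, 4 glycolysis, 3 gluconeogenesis and 1 glycogen gene were up-regulated, with all 9 tricarboxylic acid cycle genes at an unadjusted p under 0.05. By library size alone the numbers for the last 4 lists were 2, 4, 3 and 1. The ATP synthase count was 0 without WI replicate 2 or CO replicate 1, 3 or 5, it was 1 without WI replicate 4 or 5, and it was 8 to 10 without WI replicate 1 or CO replicate 2 or 4. The respirasome count was 4 without WI replicate 2 or 4 or CO replicate 1, 3 or 5, it was 6 without WI replicate 5, and it was 18 without WI replicate 1 or CO replicate 4. The tricarboxylic acid cycle count was 1 without WI replicate 2 or CO replicate 1 or 3, and 2 without WI replicate 4 or CO replicate 5. The glycolysis count was 4 without WI replicate 2 and 5 without CO replicate 1 or 3, and the gluconeogenesis count was 4 without WI replicate 2. The glycogen count was 2 without WI replicate 2 or CO replicate 3 or 5, and 3 without WI replicate 1 or CO replicate 1.

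Summed levels showed the strain difference and the shared replicate number side by side. The respiratory chain genes summed to 16902, 53797, 20541, 34847 and 33254 CPM in WI replicates 1 to 5 and to 4639, 16604, 6285, 14077 and 10738 CPM in CO replicates 1 to 5. Replicate 2 was highest and replicate 1 lowest in both strains, and the order of all 5 numbers was the same. The WI to CO ratio of the same-numbered sums stayed between 2.48 and 3.64, but a single gene, CPIJ040079, made up 66.7% to 79.2% of the sum in the WI libraries and 51.1% to 66.4% in the CO libraries. Without it the other 18 genes summed to 5583, 11182, 6839, 9520 and 8392 CPM in the WI libraries and to 2072, 5578, 2650, 6880 and 3847 CPM in the CO libraries. The ratios were then 1.38 to 2.69, and CO replicate 4 lay above WI replicates 1 and 3. The order of the numbers was then no longer the same in both strains. Replicate 4 was highest in the CO group and replicate 2 in the WI group. The ATP synthase genes summed to 18856, 27341, 16167, 19560 and 17620 CPM in the WI libraries and to 6450, 16343, 7210, 14782 and 9568 CPM in the CO libraries. Here the groups overlapped, because CO replicate 2 exceeded WI replicate 3, whereas the ratios within numbers were 1.32 to 2.92. A single gene, CPIJ008101, held much of these sums, with 10440, 12741, 7921, 8418 and 7661 CPM in the WI libraries. In the CO libraries it had 3443, 8797, 3760, 6945 and 4714 CPM. The quasi-likelihood test did not call it (log2 fold change 0.77, adjusted p = 0.0692), and sums without it were not taken. Over 57 distinct energy genes, 56 were above their group mean in WI replicate 2 and 52 in CO replicate 2, and 55 were below it in WI replicate 3 and 51 in CO replicate 3. The 4 genes listed under the myofibril, the contractile fibre of muscle, had sums of 3755, 6068, 2680, 3479 and 3202 CPM in the WI libraries and 1459, 4218, 1763, 2676 and 2026 CPM in the CO libraries. The WI library was higher in 5 of 5 pairs for all 4 genes, by 1.30 to 2.57 times in the sum, and replicate 2 was highest in both strains. The quasi-likelihood test called 0 of them, and their part in the energy result was not tested.

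**Figure D5:**
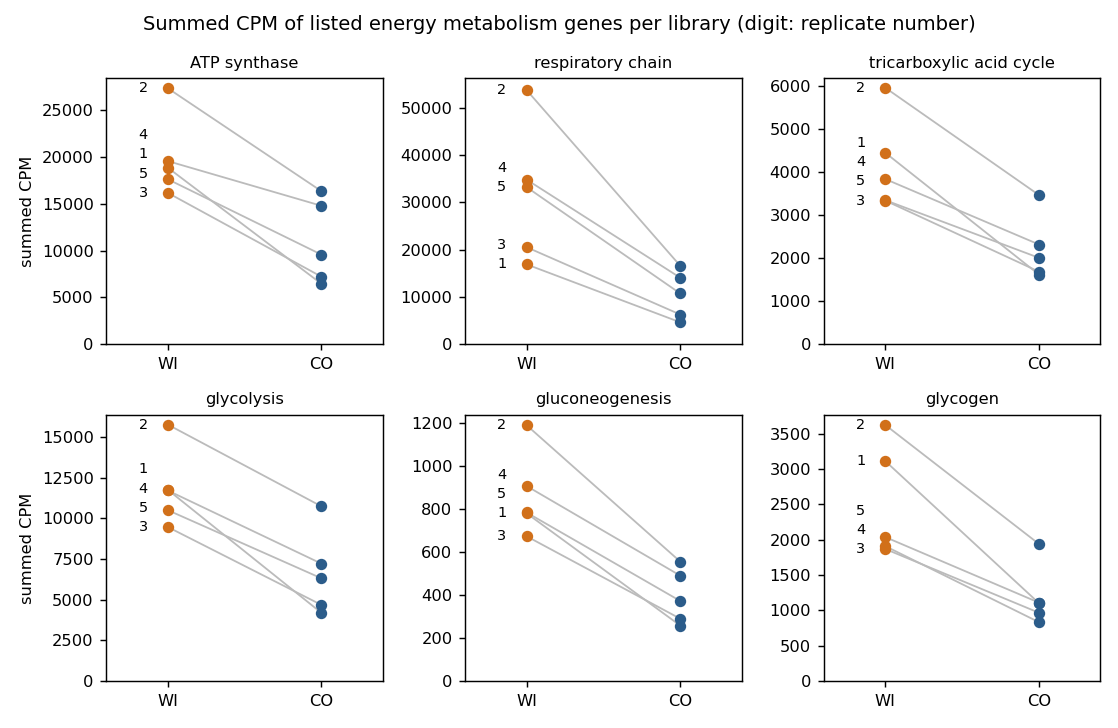
Summed CPM per library of the listed genes of 6 energy metabolism terms, with WI on the left and CO on the right of each panel; each point is 1 library, grey lines join equal replicate numbers, and the digits (stacked in order where points lie close) are those numbers. The WI point lies above the CO point of the same number in all 5 pairs of all 6 panels. Single genes that were not called weigh heavily in the ATP synthase panel (CPIJ008101) and the glycolysis panel (CPIJ009571). In WI replicate 1, CPIJ009571 had 6759 CPM of a glycolysis sum of 11753.5 CPM.

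CPIJ040079, listed with the respiratory chain and the most abundant annotated gene called higher, had 11320, 42615, 13702, 25327 and 24862 CPM in WI replicates 1 to 5 and 2567, 11026, 3635, 7197 and 6891 CPM in CO replicates 1 to 5. Its levels thus varied widely inside each strain, with replicate 2 highest and replicate 1 lowest in both, while the ratio within a number held at 3.52 to 4.41. The log2 fold change was 1.91 (SE 0.46, adjusted p = 0.0106), with an adjusted p of 0.000527 under the block in 10 libraries. CPIJ002271, an ATP synthase gene, averaged 3442 ± 969 CPM in the WI group and 1778 ± 575 CPM in the CO group (SD, n = 5 each). Its call (log2 fold change 0.95) was lost without WI replicate 1 or 2 or CO replicate 1, 3 or 5, with adjusted p between 0.051 and 0.0894. CPIJ003139, the ATP synthase gene with the largest called rise, had 257, 538, 304, 442 and 424 CPM in the WI libraries and 72.4, 249, 98.2, 310.4 and 148 CPM in the CO libraries. Its log2 fold change was 1.16, and the call was lost without WI replicate 2, 4 or 5 or CO replicate 1, 3 or 5 (adjusted p from 0.0576 to 0.084). CPIJ012224 was the one listed respiratory gene that fell, with 74.6 ± 13.1 CPM in the WI group and 147 ± 64.9 CPM in the CO group (SD, n = 5 each).

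CPIJ010516, the gluconeogenesis gene with the largest rise, had 4.87, 13.2, 6.1, 8.36 and 5.01 CPM in the WI libraries and 0.57, 0.466, 0.526, 0.76 and 0.118 CPM in the CO libraries. The groups did not overlap, and the log2 fold change was 3.95 (SE 0.42, adjusted p = 2.61e-06). CPIJ009491 of the tricarboxylic acid cycle averaged 388 CPM in the WI group and 181 CPM in the CO group, with a log2 fold change of 1.10 that was no longer called without WI replicate 2 (adjusted p = 0.06). CPIJ005519 of glycolysis averaged 2.29 CPM in the WI group and 0.674 CPM in the CO group, and CPIJ013040, listed with glycogen metabolism and with the glycosidases, 72.8 CPM in the WI group and 25.6 CPM in the CO group. Both were called higher, with log2 fold changes of 1.77 and 1.51 and groups that did not overlap. In the proline list, an amino acid that some insects burn as flight fuel, 5 of 6 genes were up-regulated, or 3 without WI replicate 2 or CO replicate 3 or 5, and 1 was down-regulated. CPIJ000123 led them with 57.1 ± 21 CPM in the WI group and 15.3 ± 7.68 CPM in the CO group (SD, n = 5 each), and CPIJ004400 fell to 0.4 ± 0.343 CPM in the WI group, against 2.6 ± 1.03 CPM in the CO group.

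Lipid genes did not move as one. The study drew both lists given here from its calls on this contrast, so calls in either direction are built in. Of all tested genes, 6.3% were up-regulated and 4.15% down-regulated. Of 13 genes listed under fatty acid metabolism 4 were up-regulated and 5 down-regulated, although the median was 0.83. The first number was 2 without WI replicate 2 or 5 or CO replicate 3 or 5, and the second was 3 without WI replicate 2, 3, 4 or 5 or CO replicate 5. CPIJ005595, named a fatty acid synthase, the enzyme that builds long-chain fatty acids, had 2015, 1740, 1088, 1120 and 1427 CPM in the WI libraries and 679.9, 801, 579, 353 and 621 CPM in the CO libraries. Its log2 fold change, the largest of the list, was 1.28 (SE 0.27, adjusted p = 0.00349), and the groups did not overlap. Its largest called fall was CPIJ002114, with 6.43 ± 2.68 CPM in the WI group and 23.1 ± 17 CPM in the CO group (SD, n = 5 each). Among 6 fatty acyl-CoA reductases, which make the fatty alcohols used in waxes, 1 was up-regulated and 2 were down-regulated with a median of -1.44, and the blocked test called 1 and 0. Without CO replicate 2 the numbers were 2 and 4, and without WI replicate 2 or CO replicate 1 or 3 they were 0 and 0. Their sum was 21.0 CPM in CO replicate 2, where the other colony libraries had 56.7 to 97.4 CPM. CPIJ000104 and CPIJ004393, the leading rise and fall of this list (log2 fold changes 0.93 and -1.70), were not called with the block in 10 libraries (adjusted p of 0.0603 and 0.117). Leaving out 1 library ended the call of CPIJ000104 for WI replicates 1, 2 and 4 and CO replicates 1, 3 and 5, and that of CPIJ004393 for every library but WI replicate 3 and CO replicate 2.

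Genes listed under serine-type endopeptidase activity and carbohydrate binding differed between the strains in both directions. Which of these endopeptidases are digestive is not given. Both lists come from the study's calls on this contrast, so many calls are built in, beside 6.3% up-regulated and 4.15% down-regulated of all tested genes. The serine-type endopeptidase list, which was available only in its leading 36 genes, had 26 up-regulated and 5 down-regulated members, a median log2 fold change of 1.34, 21 genes whose WI libraries all lay above the CO libraries and 4 with the reverse, beside 4.27% and 2.38% of all tested genes. The down-regulated members numbered 3 without WI replicate 1, 4 or 5 or CO replicate 5. CPIJ001100 had 7.95, 18.4, 13.5, 14.3 and 24.8 CPM in the WI libraries and 0.112, 0.118, 0.0373, 0.246 and 0.205 CPM in the CO libraries. No library came near the other group's range, and the log2 fold change was 6.80 (SE 0.50, adjusted p = 1.38e-08). CPIJ006430 was the largest fall of the list and was not called without CO replicates 2 and 4 (adjusted p = 0.0578), at 0.661 ± 0.453 CPM in the WI group and 2.68 ± 1.35 CPM in the CO group (SD, n = 5 each). Carbohydrate-binding genes, which include lectins, had 15 up-regulated and 8 down-regulated members of 27, the second of which was 5 without WI replicate 4. CPIJ014105 was the most extreme of those that fell, with 0.0221, 0.759, 0.3, 0.924 and 0.2 CPM in the WI libraries and 0.588, 35.8, 8.57, 20.2 and 1.94 CPM in the CO libraries. Its colony levels spread over a range wider than the strain difference itself, yet the WI library was lower in all 5 numbered pairs (log2 fold change -4.93, adjusted p = 0.00592). CPIJ007998 led the rises of this list and CPIJ006807 those of the carbohydrate-binding list drawn from the exposed females (log2 fold changes 3.91 and 4.01) at mean levels of 0.644 and 1.14 CPM in the WI group, against 0.0404 and 0.0693 CPM in the CO group. Neither was called with the block in 10 libraries (adjusted p of 0.0839 and 0.0538), and CPIJ006807 was not called without WI replicate 2, 3, 4 or 5 or CO replicate 1 or 5.

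Glycosidase and peptidase inhibitor lists, as given here, were also drawn by the study from its calls on this contrast. Their calls stand beside 6.3% up-regulated and 4.15% down-regulated of all tested genes. The glycosidase list, enzymes that cleave sugar chains, had 10 up-regulated and 4 down-regulated genes of 19. The second number was 2 without WI replicate 2 or 4 or CO replicate 1. CPIJ007333 averaged 63.4 ± 16.4 CPM in the WI group and 19.1 ± 9.15 CPM in the CO group (SD, n = 5 each), and CPIJ013173 fell to 0.546 ± 0.509 CPM in the WI group, against 2.43 ± 1.03 CPM in the CO group. Peptidase inhibitors, which hold serine endopeptidases in check, were split between 6 up-regulated and 5 down-regulated genes of 15, the second of which was 3 without WI replicate 1 or 3 and 2 without WI replicate 4. CPIJ007021 had 79.5, 204, 228, 155 and 228 CPM in the WI libraries and 13, 71.2, 16.5, 26.7 and 20.7 CPM in the CO libraries. The groups did not overlap, but the call (log2 fold change 2.59, adjusted p = 0.0285) was lost without WI replicate 2, 3 or 5 or CO replicate 1, 3 or 5, with adjusted p between 0.052 and 0.0748. CPIJ007016 fell, with a log2 fold change of -1.94, and lost its call by a narrow margin without WI replicate 1, 3 or 4 (adjusted p up to 0.0564) or without CO replicates 2 and 4 (0.114).

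Detoxification genes also differed in both directions. The study listed 70 of them for this contrast, so that a high share of calls is built into the list. The quasi-likelihood test called 53 of these 70 up-regulated and 12 down-regulated, with 38 and 9 of 48 P450s, 12 and 3 of 19 GSTs and 3 and 0 of 3 esterases, beside 6.3% and 4.15% of all tested genes. With the 10 libraries alone and no block it called 29 and 3 of the 70, and 23 and 2 of the P450s, and by library size alone 23 and 8 of the P450s. The down-regulated P450s numbered 3 to 5 without WI replicate 2, 3 or 5 or CO replicate 5, the down-regulated GSTs 1 without WI replicate 2 or 5 or CO replicate 5, and the esterases 1 without WI replicate 5. The P450 sums overlapped between the groups, at 1690, 1513, 1577, 1790 and 1935 CPM in the WI libraries and 1186, 809, 1109, 1982 and 1829 CPM in the CO libraries, and the ratio within a number ran from 0.903 to 1.87. CPIJ009415, listed only as a cytochrome P450 and one of the most abundant annotated genes called lower, had 463, 208, 352, 435 and 411 CPM in the WI libraries and 792, 302, 671, 1175 and 1227 CPM in the CO libraries. Its log2 fold change was -1.16, and the call was lost without WI replicate 2 or CO replicate 5 (adjusted p of 0.0644 and 0.0687). CPIJ009415 alone made up the larger part of the P450 sum in CO replicates 1, 3, 4 and 5. Sums without it were not taken. Of the 48 P450s, 39 had WI above CO in 5 of 5 numbered pairs and 7 had WI below. The shares of all tested genes were 15.8% and 10.2%. The sum of the genes that the study placed with the GSTs was higher in the WI group in 5 of 5 pairs, by 1.83 to 2.87 times. That list includes the fatty acid synthase gene CPIJ005595, which made up 55.0% to 74.9% of the sum in the WI libraries and 38.2% to 72.5% in the CO libraries. The other 18 genes summed to 675 to 915 CPM in the WI libraries and 258 to 591 CPM in the CO libraries, with ratios of 1.36 to 2.62 in the pairs. P450s, GSTs and endopeptidases belong to families with close copies, among which reads can be shared, so values of single members are uncertain to that extent.

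The P450s with the largest rises were members of the CYP6, CYP9, CYP305 and CYP325 families. CYP6Z16 (CPIJ020018) had 49.8, 54.0, 39.9, 38.2 and 57.2 CPM in the WI libraries, against 0 CPM in CO replicates 1 to 4 and 0.1001 CPM in CO replicate 5. It was thus close to an on and off difference at a moderate level, with a log2 fold change of 11.09 (SE 0.79, adjusted p = 1.08e-08). CYP6M16 (CPIJ019702) had 7.91, 11.9, 15.9, 11.5 and 17.5 CPM in the WI libraries and 0.22, 0.537, 0.509, 0.857 and 1.91 CPM in the CO libraries. CYP9J34 (CPIJ010546) and CYP9J33 (CPIJ010544) averaged 9.16 ± 5.49 and 131 ± 31.7 CPM in the WI group and 0.568 ± 0.239 and 16.7 ± 7.67 CPM in the CO group (SD, n = 5 each). CYP6Z14 (CPIJ019587) averaged 83.6 ± 29.2 CPM in the WI group and 12.4 ± 4.83 CPM in the CO group (SD, n = 5 each). CYP325BC2 (CPIJ010810) and CYP305A10 (CPIJ014942) had log2 fold changes of 2.64 and 2.96, the second of which was not called without WI replicate 5 or CO replicate 1 (adjusted p of 0.0516 and 0.057).

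Among GSTs, enzymes that couple glutathione to foreign or oxidised molecules, CPIJ002675, named glutathione S-transferase 1, had the largest rise. It had 15.3, 7.79, 9.19, 5.87 and 8.08 CPM in the WI libraries and 0.123, 0.046, 0.00828, 1.04 and 0.239 CPM in the CO libraries, a log2 fold change of 5.03 (SE 0.80, adjusted p = 0.000256). The list of glutathione metabolism, to which it belongs, had 8 up-regulated and 1 down-regulated gene of 12, and the first number was 4 without CO replicate 3 and 5 without WI replicate 2, 3, 4 or 5 or CO replicate 1 or 5. That one was CPIJ010814, named glutathione S-transferase 1-5, with 4.09 ± 2.3 CPM in the WI group and 11.3 ± 7.26 CPM in the CO group (SD, n = 5 each), and its call was lost without WI replicate 1, 2 or 5 or CO replicate 4 or 5 (adjusted p from 0.0575 to 0.106), or without CO replicates 2 and 4 (0.112). Of the falls with groups that did not overlap, CYP9M13P (CPIJ014221) was the largest, at 3.22, 1.4, 1.48, 1.22 and 2.69 CPM in the WI libraries and 12.3, 9.15, 13.2, 19.8 and 16.4 CPM in the CO libraries. CPIJ001460, which the study placed with the GSTs although it is named a palmitoyltransferase, fell to 2.36 ± 0.5 CPM in the WI group, against 7.19 ± 2.46 CPM in the CO group (SD, n = 5 each). CYP9AM1 (CPIJ010203) was called at an adjusted p of 0.0496, which did not hold without any 1 of the 10 libraries (0.0525 to 0.109), with the block in 10 libraries (0.21) or without CO replicates 2 and 4 (0.199).

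DNA repair was the list with the most genes called lower in the WI group. It and the mismatched DNA binding list were drawn by the study from its calls on this contrast. A high share of calls is thus built in, whereas 6.3% of all tested genes were up-regulated and 4.15% down-regulated. Of 26 listed genes 16 were down-regulated and 2 up-regulated, with a median log2 fold change of -1.40, and 3 of the 4 genes listed under mismatched DNA binding were down-regulated as well, or 1 without WI replicate 5 or CO replicate 1 or 3. CPIJ008926, in both lists, had 3.2, 2.45, 4.99, 4.3 and 4.94 CPM in the WI libraries and 25, 2.96, 34.1, 26.5 and 28.4 CPM in the CO libraries. CO replicate 2 fell inside the WI range, and the other 4 colony libraries were all at 25.0 CPM or more (log2 fold change -2.56, SE 0.41, adjusted p = 0.000302). The same library stood out in the sums of the whole list, which were 98.5, 78.0, 89.6, 94.7 and 102 CPM in the WI libraries and 336, 98.8, 218, 165 and 184 CPM in the CO libraries. Without CO replicate 2 the test called 21 of the 26 genes lower, without CO replicate 1 it called 7, and without CO replicates 2 and 4 it called 22. Without WI replicate 2 the count was 9, without WI replicate 4 it was 10, and with the 10 libraries alone it was 5. CPIJ014171 showed the largest fall, to 0.156 ± 0.108 CPM in the WI group, against 2.1 ± 1.35 CPM in the CO group (SD, n = 5 each), and was no longer called without WI replicate 2 or CO replicate 3 (adjusted p of 0.0512 and 0.0517). CPIJ017291 rose to 1.15 ± 0.397 CPM in the WI group, against 0.411 ± 0.16 CPM in the CO group, but was not called with the block in 10 libraries (adjusted p = 0.0691).

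The 3 genes listed under oogenesis, the making of eggs in the ovary, were lowest in replicate 2 of both strains, as was the DNA repair sum. Their sums were 103, 21.6, 202, 227 and 185 CPM in WI replicates 1 to 5 and 632, 1.5, 559, 310 and 433 CPM in CO replicates 1 to 5. CO replicate 2 stood far below every other library. The quasi-likelihood test called 0 of the 3, with 0 at an unadjusted p under 0.05, 0 called by DESeq2 and a median log2 fold change of -1.26. Without CO replicate 2, and without CO replicates 2 and 4, it called all 3 lower in the WI group. Their part in the DNA repair result was not tested. The 5 genes listed under protein-chromophore linkage, a term that covers light-sensing and pigment-bearing proteins, had 3 down-regulated members. This list too was drawn from calls on this contrast, and 4.15% of all tested genes were down-regulated. CPIJ015481, the largest fall among them, had 68.2, 64.9, 55.3, 53.3 and 101 CPM in the WI libraries and 167, 179, 141, 210.3 and 158 CPM in the CO libraries, which did not overlap (log2 fold change -1.32, SE 0.18, adjusted p = 5.9e-05). CPIJ014791, listed under negative regulation of metabolic process, was the other abundant annotated gene called lower, with 126 ± 29 CPM in the WI group and 307 ± 38.7 CPM in the CO group (SD, n = 5 each).

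Other pathway lists had been drawn by the study from the exposed females, and so not from this contrast. Over their union, 32 of 152 genes (21.1%) were up-regulated and 3 (1.97%) down-regulated, beside 6.3% and 4.15% of all tested genes, with a median log2 fold change of 0.27. The respirasome, tricarboxylic acid cycle and glycolysis lists of this kind had 3 of 9, 5 of 9 and 4 of 7 genes up-regulated and none down-regulated, and the block in 10 libraries called 9, 8 and 4. Without the block the 10 libraries gave 1, 0 and 2, with 8, 7 and 5 at an unadjusted p under 0.05. The respirasome count was 5 without WI replicate 1 and 9 without CO replicate 4. The tricarboxylic acid cycle count was 1 without WI replicate 2 or CO replicate 1 or 3, 2 without WI replicate 4 or CO replicate 5 and 3 without WI replicate 1, and the glycolysis count was 2 without WI replicate 2 or CO replicate 1 or 3. Every member of these lists had a positive log2 fold change, but the lists share members with those above. Of 34 cuticle genes 7 were up-regulated and none down-regulated, and with the block in 10 libraries the numbers were 4 and 1. Without WI replicate 3 or CO replicate 1 the test called 3 of them higher, and without CO replicate 3 it called 4. Carbohydrate-binding genes of this kind had 10 up-regulated and 2 down-regulated of 19, the second of which was 1 without WI replicate 2 or 5 or CO replicate 3, and glucuronosyltransferases, which attach sugar acids to small molecules, 3 and 0 of 7. CPIJ004373 led the glucuronosyltransferases with 124 ± 54.6 CPM in the WI group and 50 ± 16.4 CPM in the CO group (SD, n = 5 each). The quasi-likelihood test called 0 of 33 nucleolus genes (median log2 fold change -0.29), 0 of 11 proteasome genes (0.10) and 0 of 4 myofibril genes (0.69). At an unadjusted p under 0.05 it found 8 nucleolus genes lower and no gene of the other lists, DESeq2 called 5 nucleolus genes lower, and the block in 10 libraries called 2 myofibril genes higher. Without CO replicate 2 the test called 4 nucleolus genes lower and 1 myofibril gene higher, and without CO replicate 4 it called 2 nucleolus genes lower. Of 13 peptidase inhibitors the quasi-likelihood test called 0 higher and 1 lower, CPIJ012643. Its call was lost without WI replicate 1, 3, 4 or 5 or CO replicate 2 or 4, with the block in 10 libraries and without CO replicates 2 and 4 (adjusted p from 0.0574 to 0.374). The block in 10 libraries called 1 member higher and 1 lower, the second of which was not CPIJ012643. At an unadjusted p under 0.05 in the quasi-likelihood test 2 members were higher and 4 lower, and DESeq2 called 0 higher and 3 lower. Log2 fold changes ran from -5.83 to 0.95. The detoxification genes that the study had listed for the exposed females had 14 up-regulated and 3 down-regulated of 42, of which 18 stand in both lists, and every called gene was among those 18.

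CPIJ000162, the 60S ribosomal protein L8 gene that the study used as its qRT-PCR reference, was not called in either direction. It had 2063, 3282, 3172, 4105 and 4405 CPM in the WI libraries and 2061, 2540, 2372, 6531 and 4120 CPM in the CO libraries, with a log2 fold change of -0.05 (SE 0.29, adjusted p = 0.943). The sign depended on the fit, as the closing section sets out, and the highest level of all was that of CO replicate 4.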

How the data were processed

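RNA-seq counts of 20 pools were compared by the groups named in the labels, 5 WI against 5 CO. The deposited files hold raw read counts per gene that the authors made from directional libraries, and the submitters' processing notes name Trim Galore 0.6.4, STAR 2.7.3a, Picard 2.20.1, featureCounts 1.6.0 and GATK. Whether the counting used strand is not given in the sources used here; reads of overlapping genes on opposite strands, and of close copies within a gene family, may not be separated. The files hold IDs without gene names, and 0 of the IDs matched the RefSeq table given; names and pathway lists are those of the study's supplementary files.

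Genes passing filterByExpr (minimum count 10, minimum total 15) were fitted with TMM factors and edgeR's quasi-likelihood test (edgeR 4.0.16, limma 3.58.1, R 4.3.3) on all 20 libraries without a block, and p-values were adjusted by Benjamini-Hochberg over all tested genes, with 0.05 as the threshold. CPM are TMM-normalized, and log2 CPM used a prior count of 2. Summaries and plots used Python 3.11.15, numpy 2.4.6, pandas 2.3.3 and matplotlib 3.10.9. The fits were tested on simulated data with less spread between libraries than these data and no outlying pools. That test thus does not show how the fits behave at the spread seen here. Depth was 144117152 to 189723320 counts a library over WI and CO, and bounds against 0 counts cover counting error only.

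Same-numbered WI and CO libraries deviated together with r of 0.31, 0.47, 0.23, 0.22 and 0.17 for numbers 1 to 5, each over the limit of 0.1, so the numbers were taken as pairs and the replicate block is given beside results whose call it changes. The correlation is the only source of this pairing, since the labels give none. Differently numbered libraries reached an r of 0.26, so the limit of 0.1 alone does not tell pairs from other numbers. In each strain 4 of the 5 libraries correlated best with their own number. The pairing was read from the same counts that the block was then applied to.

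Alternatives were the likelihood ratio test, DESeq2 1.42.0, RLE factors, library size alone, no filter, a filter of 1 CPM in 5 libraries, the 10 libraries alone, the block and each library left out. Leaving out CO replicates 2 and 4, the 2 most counted genes, or all pairs but 1, 3 and 5 was chosen after seeing the data. Named genes were those counted in 1 group and silent in the other (2 unannotated ones in each direction and the annotated ones), called detoxification genes with groups that did not overlap (the 8 largest rises and up to 4 of the largest falls, of which there were 3), the largest called rise and fall of each pathway list, the 2 most abundant annotated called genes in each direction, and the qRT-PCR reference. Comparisons, lists and genes were chosen with earlier results of these data known. Fold changes and p-values of the study were not used.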

Additional observations from a re-analysis of the deposited data

Results flagged for a closer look

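In 8 of 101 sets of 5 libraries, the highest library lay further from its neighbours than Dixon's 95% limit allows, which chance does in about 1 set in 20. For CYP6Z16 (CPIJ020018) CO replicate 5 had 0.1001 CPM and the other CO libraries 0. For the glutathione S-transferase 1 gene CPIJ002675, CO replicate 4 had 1.04 CPM and the others of its group 0.00828 to 0.239 CPM. For CPIJ010814, named glutathione S-transferase 1-5, CO replicate 4 had 23.8 CPM and the others 5.66 to 10.8 CPM. CO replicate 2 stood out at 307 CPM for the tricarboxylic acid cycle gene CPIJ009491, where the other CO libraries had 136 to 165 CPM, and at 71.2 CPM for the peptidase inhibitor CPIJ007021, where they had 13 to 26.7 CPM. WI replicate 2 stood out at 92.5 CPM for the glycosidase CPIJ007333, where the other WI libraries had 52.6 to 58.4 CPM, and at 219 CPM for the glucuronosyltransferase CPIJ004373, where they had 85.2 to 115 CPM. For the glycosidase CPIJ013173, WI replicate 4 had 1.45 CPM and the other WI libraries 0.264 to 0.349 CPM.

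The 3 genes counted in every CO library and in no WI library had counts in the exposed field females. CPIJ020141 had 111 counts there over 10 libraries, CPIJ006588 had 76, and CPIJ013317, named here after its values were seen, had 73. With the block in 10 libraries CPIJ006588 and CPIJ013317 were not called (edgeR adjusted p = 0.0550 and 0.0625, against 0.0193 and 0.00559 without the block in 20 libraries).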

How the results depend on the processing

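Genes higher in WI numbered 696 by library size alone, 434 in the fit of the 10 libraries, 1979 with the replicate block in 20 libraries, 2414 without CO replicates 2 and 4 and 2002 with the replicate block on pairs 1, 3 and 5, and 758 to 1671 when 1 library was left out. Genes lower in WI numbered 1373 with DESeq2, 178 in the fit of the 10 libraries, 1185 with the replicate block, 1881 without CO replicates 2 and 4, 1565 with the block on pairs 1, 3 and 5, and 418 to 1441 with 1 library left out. On and off genes numbered 3 and 0 at 100 counts or more, and 18 to 30 and 3 to 7 with 1 library left out. Of genes of 100 CPM and over, 5.70% were higher and 0.688% lower in the fit of the 10 libraries, and 27.7% were higher with the block there. With a filter of 1 CPM in 5 libraries the median pairing correlation was 0.44, the coefficient of variation 0.390 in WI and 0.555 in CO, and the median distance 0.954 within WI and 1.36 between the strains. A prior count of 0.5 gave distances of 1.56 and 1.94. The coefficient of variation was 0.580 in WI by library size alone, and 0.480 to 0.579 in WI and 0.602 to 0.747 in CO with 1 library left out. The log2 fold change of CPIJ000162 turned positive with the replicate block in 20 libraries (0.014) and in 10 (0.015), without CO replicates 2 and 4 (0.25) and with the block on pairs 1, 3 and 5 (0.14), and was -0.19 to 0.30 with 1 library left out, positive without WI replicate 1 (0.09), CO replicate 4 (0.30) and CO replicate 5 (0.01). The causes were not tested. Of 50 named genes that were called, none changed direction, 14 lost the call without 1 library, 18 in the fit of the 10 libraries, 8 with the block there and 10 by library size alone. With the block in 20 libraries, CPIJ010203 and CPIJ004393 changed their call. Of the 3 genes counted in every CO library and no WI library, CPIJ006588 and CPIJ013317 lost the call with the block in 10. Sorted by the mean of the 10 WI and CO libraries, 7.30% of genes of 1000 CPM and over were higher and 0.730% lower. Of list counts, 1260 of 1540 over all alternatives stayed within 1.5 times. Counts of 0 that stayed at 0 are among the 1260, so this share does not measure how stable the calls were. Over the alternatives the ATP synthase genes called higher numbered 0 to 10, the respirasome genes 2 to 18 and the tricarboxylic acid cycle genes 0 to 9.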
